A study of Mus musculus with 4 samples.

Results

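Open chromatin was profiled by ATAC-seq in the facial surface ectoderm of mouse embryos at embryonic day 11.5 (E11.5). The assay marks open chromatin by the insertions of a transposase. The control group held 2 libraries from littermates of genotype Tfap2a flox/+; Tfap2b flox/+ that lacked the Cre transgene Crect. The ectoderm double knockout (EDKO) group held 2 libraries of genotype Crect; Tfap2a flox/flox; Tfap2b flox/flox, in which Cre, driven by an intronic enhancer of Tfap2a, recombines both floxed genes in the ectoderm. The ectoderm sheets were separated from the mesenchyme by an enzyme. Floxed alleles were therefore present in all 4 libraries, and the groups differed both in Crect and in the number of floxed alleles. The authors called peaks in both control libraries together, and called regions with more signal in the control libraries than in the EDKO libraries, here termed AP-2-dependent regions.

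The 823 regions described here lay at an intermediate distance from start sites and outside the principal transcripts of protein-coding genes. Each was an AP-2-dependent region on chromosomes 1 to 19 with its centre more than 5 kb and at most 100 kb from the closest protein-coding start site, and with its summit outside the principal transcript of every protein-coding gene. They were 26.5% of the 3103 AP-2-dependent regions and 27.3% of the 3010 on these chromosomes. The others comprised 1154 distal genic regions, with the summit inside a principal transcript, 322 promoter-proximal regions within 5 kb of a start site, and 711 remote intergenic regions more than 100 kb away. These intergenic regions were selected on measured values, since presence in the list required a stronger signal in controls than in EDKO embryos. Their width, area and summit values are therefore given as a description, without a test. A chromosome 1 region 5016 bp from the start site of Rgs13 was the member nearest to the lower limit, with an area of 360 and a summit −log10 p of 4.27, and a region 4961 bp from Fgfr3, with an area of 206 and a summit value of 3.63, lay just outside it. At the upper limit a member lay 99912 bp from Rap2a, with an area of 804 and a summit value of 5.69. The nearest region outside lay 100461 bp from Fry, with an area of 313 and a summit value of 4.54.

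AP-2 proteins bind DNA as dimers, through a palindrome with the arms GCC and GGC around a short spacer, and are expressed in the surface ectoderm from its earliest stages. Open chromatin between genes includes enhancers, which act on start sites over a distance, and insulators, many of which bind CTCF. The facial ectoderm covers the mesenchyme of the growing prominences and sends it Wnt, Fgf, Bmp and other signals. The nearest start site is a convention for naming a region and does not show which gene the region acts on.

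The sequences below show how the AP-2 consensus GCCNNNGGC, read on both strands, lay in members next to genes of the facial ectoderm. Each runs from 100 bp before to 100 bp after the summit of a single-copy member, on the + strand of the GRCm38 (mm10) genome, with the consensus in capitals. Shown first are 6 with a pyrimidine and a purine at the outer positions of the central 3 bases, the arrangement that recurs in the results, and then 2 with other centres. The Dlx2 window is chr2:71541408-71541608, the Barx2 window chr9:32011552-32011752, the Wnt2b window chr3:104994505-104994705, the Trp63 window chr16:25779987-25780187, the Sema3c window chr5:17556262-17556462, the Aldh1a3 window chr7:66443022-66443222, the Cxcl14 window chr13:56315382-56315582 and the Hes1 window chr16:30134133-30134333.
Dlx2: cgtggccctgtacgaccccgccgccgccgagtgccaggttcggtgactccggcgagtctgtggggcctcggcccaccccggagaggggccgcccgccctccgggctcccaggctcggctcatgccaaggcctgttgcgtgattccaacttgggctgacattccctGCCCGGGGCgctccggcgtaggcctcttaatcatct
Barx2: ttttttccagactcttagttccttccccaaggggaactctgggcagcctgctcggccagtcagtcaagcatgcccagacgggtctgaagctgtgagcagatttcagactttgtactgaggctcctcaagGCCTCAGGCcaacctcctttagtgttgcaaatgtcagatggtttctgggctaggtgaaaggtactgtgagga
Wnt2b: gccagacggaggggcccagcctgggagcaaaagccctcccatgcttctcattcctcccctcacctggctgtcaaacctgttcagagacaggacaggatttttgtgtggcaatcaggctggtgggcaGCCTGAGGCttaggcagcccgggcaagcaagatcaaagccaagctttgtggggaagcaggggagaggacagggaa
Trp63: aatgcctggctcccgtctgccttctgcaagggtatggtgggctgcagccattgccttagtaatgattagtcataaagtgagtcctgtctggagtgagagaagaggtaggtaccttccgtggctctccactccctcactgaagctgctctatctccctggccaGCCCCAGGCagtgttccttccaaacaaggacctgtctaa
Sema3c: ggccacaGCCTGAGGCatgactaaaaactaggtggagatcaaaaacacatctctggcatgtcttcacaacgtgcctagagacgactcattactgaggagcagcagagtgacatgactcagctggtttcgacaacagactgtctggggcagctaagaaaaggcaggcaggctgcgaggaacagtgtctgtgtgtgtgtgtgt
Aldh1a3: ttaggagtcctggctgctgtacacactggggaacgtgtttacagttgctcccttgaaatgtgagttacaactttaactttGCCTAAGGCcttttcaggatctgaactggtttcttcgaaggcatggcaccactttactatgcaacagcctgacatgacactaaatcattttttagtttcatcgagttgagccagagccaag
Cxcl14: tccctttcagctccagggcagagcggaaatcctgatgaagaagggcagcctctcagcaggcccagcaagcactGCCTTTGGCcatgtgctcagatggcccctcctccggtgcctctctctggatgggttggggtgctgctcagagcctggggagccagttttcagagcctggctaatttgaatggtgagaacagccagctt
Hes1: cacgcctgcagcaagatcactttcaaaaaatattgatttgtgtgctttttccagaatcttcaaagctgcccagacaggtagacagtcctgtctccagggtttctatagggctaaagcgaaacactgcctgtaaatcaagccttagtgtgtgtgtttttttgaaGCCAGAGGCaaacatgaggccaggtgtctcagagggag

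In the Dlx2 window the consensus lay 69 bp from the summit, in Barx2 33 bp, in Wnt2b 30 bp, in Trp63 66 bp, in Sema3c 89 bp, in Aldh1a3 16 bp, in Cxcl14 23 bp and in Hes1 67 bp. The summit itself was inside none of these 8 matches.

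The members were narrow and mostly of moderate strength. The median member was 354 bp wide, the central part of the distribution reached from 292 to 479 bp (quartiles), the extremes were 163 and 4723 bp, and together the members covered 344 kb. The area under the curve, which sums −log10 p over a region and had a lower bound of about 200 in the call, had a median of 401 with quartiles of 274 and 652. It was under 300 in 261 members, at least 500 in 307 and at least 1000 in 108. The summit −log10 p had a median of 4.43 and ranged from 3.11 to 336. The 10 members with the largest areas held 57.4% of the area of all 823, and 8 of those 10 were sequence present more than once in the assembly. Median areas in the distal genic, promoter-proximal and remote intergenic regions were 385, 378 and 397.

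Of the 63926 control peaks on chromosomes 1 to 19, 4.51% overlapped an AP-2-dependent region, and of the 16852 control peaks with the same location as the members 794 did, or 4.71% (95% interval 4.40 to 5.04%). All 95% intervals of shares are Wilson intervals, and those of differences Newcombe intervals. Where a count was 0, the share said to be allowed is 3 counts of the total. They cover counting error over peaks only, because the peaks are not replicates of the experiment and the lists hold no value per library. The 823 members lay in 793 different control peaks. Control peaks around members had a median summit −log10 p of 7.22 in the control list, at percentile 74.5 (median) of all control peaks on these chromosomes, against 4.69 in the 16058 control peaks of the same location without a region. The member filled a median of 61.4% of its control peak, and in 65.2% its summit was within 50 bp of the control summit. The control signal is part of the contrast that chose the members, so these control values too are a description.

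The share of intergenic control peaks that overlapped a region was higher farther from start sites. It was 3.01% (2.43 to 3.72%) of 2723 control peaks at 5 to 10 kb, 4.21% (3.69 to 4.79%) of 5087 at 10 to 25 kb, 5.17% (4.57 to 5.85%) of 4604 at 25 to 50 kb and 5.86% (5.20 to 6.59%) of 4438 at 50 to 100 kb. In the same bins there were 82, 217, 249 and 275 members, and the median distance was 34.0 kb with quartiles of 17.1 and 58.9 kb. Multi-copy peaks are included in the shares by distance. These shares were not repeated on single-copy sequence, nor within groups of GC content or summit value. Members lay upstream of the nearest start site in 574 cases, or 69.7% (66.5 to 72.8%), close to the 67.1% (66.4 to 67.9%) of control peaks without a region. Of the upstream control peaks 4.90% overlapped a region and of the downstream ones 4.31%, with overlapping intervals.

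**Figure D1:**
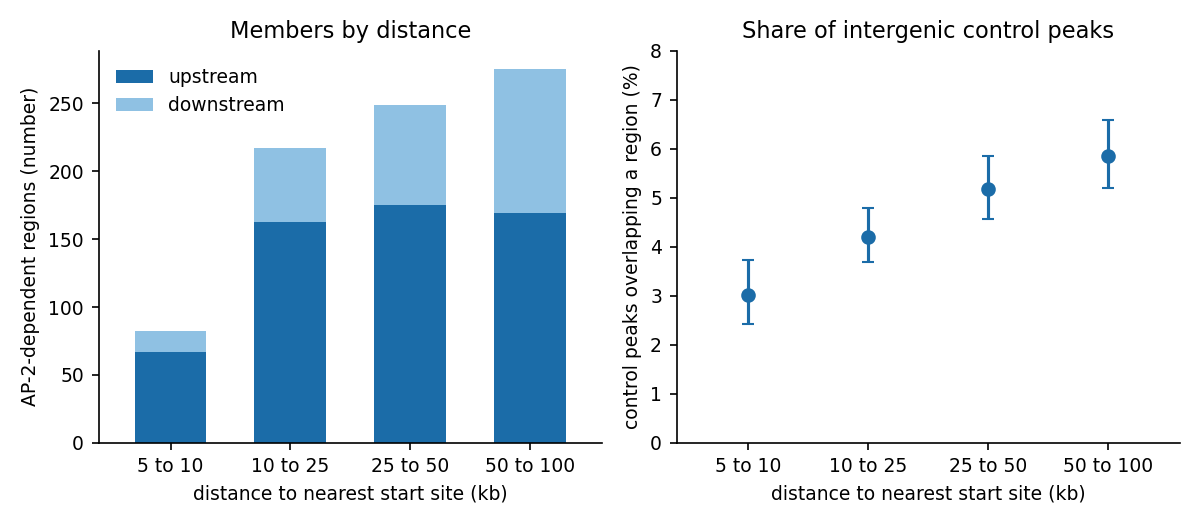
Left, number of members (y axis) by distance in kb to the nearest protein-coding start site (x axis), split into upstream and downstream. Right, share of intergenic control peaks in each distance bin that overlapped an AP-2-dependent region, in percent, with 95% Wilson intervals as bars. The share was 3.01% at 5 to 10 kb and 5.86% at 50 to 100 kb.

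Most members lay in no annotated gene of any kind. This held for 624 of the 823 summits, or 75.8% (72.8 to 78.6%). The rule had already left out summits in principal transcripts of protein-coding genes, and no share of control peaks is given beside this one. A long non-coding RNA gene held 115 summits, another transcript of a protein-coding gene 77 and a pseudogene 14, and 37 summits were in an annotated exon. Within 100 bp of the summit the GC content had a median of 49.8%, between the 45.8% of remote intergenic and the 52.2% of promoter-proximal regions and below the 51.7% of control peaks without a region. The ratio of observed to expected CpG had a median of 0.218 in members and 0.274 in those control peaks. No base of the window was marked as repeat in 47.1% (43.8 to 50.6%) of members and in 44.3% (43.6 to 45.1%) of those peaks.

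A part of the members was repeated sequence, and some of this was called in large blocks. By the number of times their 31-base words occur in the assembly, 712 members (86.5%) were single-copy and 111 were not. The single-copy share was 88.7% (88.2 to 89.2%) in control peaks of the same location without a region. It was 91.3% in distal genic, 76.7% in promoter-proximal and 94.5% in remote intergenic regions. Among the members, 7 chains of at least 3 had gaps of at most 10 kb and held 53 members, and 5 of the chains held no single-copy member. The longest was a run of 21 members near Atg7, an autophagy enzyme (chr6:114542997-114629659). Their words occurred 48 times in the median, and 16 of them carried the AP-2 consensus. Pdia4, a protein disulphide isomerase of the endoplasmic reticulum, was nearest to 10 members and Ezh2, the methyltransferase of Polycomb, to 9. These 2 blocks had a median of 16 copies and no AP-2 consensus. The genes Gm15319 (7 members), Eapp (5 members) and Fcgr3 (4 members) also had no single-copy member. Another AP-2-dependent region lay within 10 kb of 15.2% (12.9 to 17.8%) of members, and among single-copy regions alone this fell to 9.13% (7.23 to 11.5%). Reads that map to several places were kept by the authors at up to 10 positions each, so a multi-copy member need not be a separate event. Its part in the results was not tested beyond repeating some of them on single-copy sequence.

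The AP-2 consensus was enriched at the summits of the members relative to control peaks of the same location. It lay within 100 bp of the summit in 202 of 823 members, or 24.5% (21.7 to 27.6%), and in 12.01% of the 16058 control peaks without a region, a difference of 12.53 percentage points (95% interval 9.67 to 15.6). Among single-copy sequence the shares were 24.0% and 12.4%, a difference of 11.6 points (8.59 to 15.0). Another AP-2 string, SCCYNRGGS, has S for either strong base, Y for a pyrimidine and R for a purine. It frees the outer bases but fixes the edges of the centre, and it separated members from control peaks more. It was present in 419 members, or 50.9% (47.5 to 54.3%), and in 18.5% of the control peaks, a difference of 32.4 points (28.9 to 35.8). Either string was present in 462 members, or 56.1% (52.7 to 59.5%), against 23.3% (22.6 to 23.9%). Both were present in 159 members, so SCCYNRGGS did not cover all 202 members with the consensus. The arms GCC and GGC set 4 bases apart occurred in 17.0% of members and 10.4% of control peaks, a difference of 6.60 points (4.14 to 9.36).

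Among AP-2-dependent regions of other locations the consensus was less often present in distal genic regions, and for the other locations the interval of the difference included 0. It was present in 20.5% of distal genic regions (members higher by 4.01 points, 0.289 to 7.79), in 21.1% of promoter-proximal regions (3.43 points, −2.13 to 8.54) and in 24.5% of remote intergenic regions (0.07 points, −4.26 to 4.36). The difference from distal genic regions was positive under each alternative run. Its interval left out 0 with an area of at least 500 (7.43 points, 1.35 to 13.6), over the whole region (6.71 points, 2.63 to 10.8) and with any transcript start (5.31 points, 1.52 to 9.12), and included 0 in single-copy sequence (1.91 points, −2.06 to 5.97), within 50 bp (1.87 points, −0.72 to 4.59) and with SCCYNRGGS (0.91 points, −3.55 to 5.37). The difference from promoter-proximal regions left out 0 with an area of at least 500 (9.96 points, 1.26 to 17.4) and with any transcript start (5.33 points, 0.325 to 10.04). Of the 202 members with the consensus, 31 were multi-copy. Across the members SCCYNRGGS occurred in 57.1% of those with an area under 300 and in 36.1% of those of at least 1000, and in single-copy members these shares were 61.1% (54.8 to 67.0%) and 58.7% (46.4 to 70.0%), with no such difference. By distance, 25.6% of single-copy members at 5 to 10 kb and 20.3% of those at 50 to 100 kb carried the consensus, with intervals of 17.3 to 36.3% and 15.6 to 25.9% that overlap.

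The matches lay close to the summit. In 50-bp steps from −100 to 100 bp there were 7.29, 6.80, 5.22 and 7.53 matches per 100 members, against 1.94 and 2.07 in the steps just outside. In control peaks without a region the same 4 bins held 3.07, 3.71, 3.72 and 2.99 matches, with the most next to the summit. Of the matches within 100 bp, 55.2% in members and 44.9% in the control peaks lay at 50 to 100 bp. The sequences from Sema3c and Dlx2 shown above are of this kind, with the match at 89 and 69 bp.

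**Figure D2:**
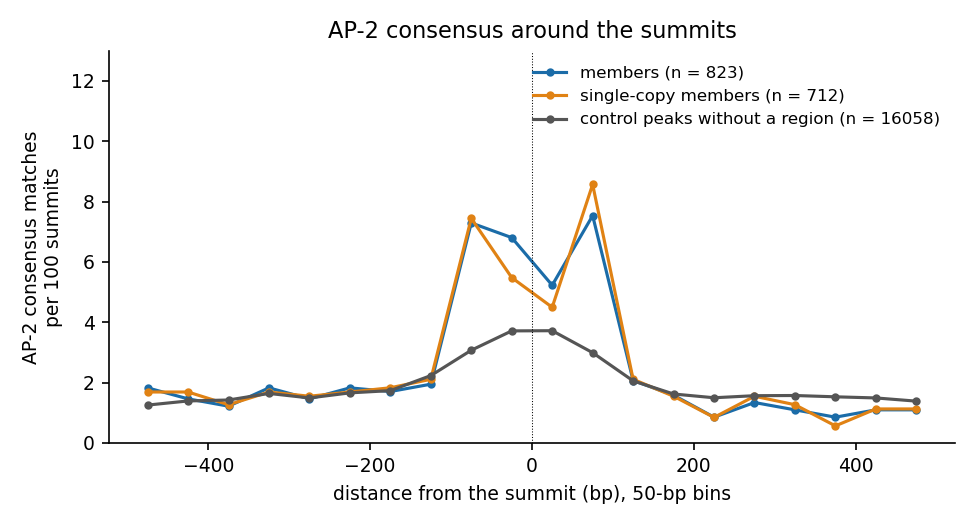
Number of AP-2 consensus matches per 100 summits (y axis) in 50-bp bins of distance from the summit in bp (x axis), for all members, single-copy members and control peaks of the same location without a region. Members exceed control peaks in the 4 bins within 100 bp (5.22 to 7.53 against 2.99 to 3.72) and lie near them beyond.

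The same relation was read from the side of the control peaks, with the consensus searched around the control summit. Of the intergenic control peaks without a match 4.12% (3.81 to 4.45%) overlapped a region, and of those with 1 match 8.97% (7.79 to 10.3%). A further match added nothing detectable, with 7.89% (4.57 to 13.3%) at 2 matches. For SCCYNRGGS the shares were 2.89, 11.7, 13.2 and 13.4% at 0, 1, 2 and at least 3 matches. The share with a region also went with the control summit value, which is part of the contrast. When the control peaks were divided into 4 equal groups by summit −log10 p, the shares without and with 1 match were 0.458 and 1.27% in the weakest group, 1.62 and 1.93% in the next, 3.51 and 9.49% in the next, and 11.2 and 19.7% in the strongest. In 4 equal groups by GC content the shares were 5.46 and 16.8% at the lowest GC, 4.37 and 10.7%, 3.43 and 8.72%, and 2.86 and 5.13% at the highest. Peaks with 1 match overlapped a region more often in every group, and in the weaker 2 groups by summit value the intervals overlapped.

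The central 3 bases of the consensus also separated the control peaks. Among single-copy intergenic control peaks with 1 match, 123 of 969 with a pyrimidine at the first and a purine at the last of these bases overlapped a region, or 12.7% (10.7 to 14.9%). With the reverse arrangement, a purine first and a pyrimidine last, 1 of 151 did, or 0.662% (0.117 to 3.66%). With any other centre 28 of 664 did, or 4.22% (2.93 to 6.03%), close to the 4.22% (3.89 to 4.58%) of peaks with no match. The first arrangement exceeded all the others together by 9.14 points (6.67 to 11.6), and those others differed from peaks without a match by −0.66 points (−1.79 to 0.88). This reading of the centre was not among the planned results. SCCYNRGGS, which had already separated members from control peaks, fixes the same edges of the centre. The results on the centre are therefore not independent of it. Median GC was 53.2% for the first arrangement, 57.2% for the reverse and 55.2% for the other centres, and median summit values were 4.95, 5.61 and 5.06. The order was kept on both sides of the median GC content. Below it the shares were 18.2% (78 of 428), 6.05% (13 of 215) and 2.38% (1 of 42), and above it 8.32% (45 of 541), 3.34% (15 of 449) and 0 of 109, which allows up to 2.75%. In peaks below the median summit value the shares were 4.09% (19 of 464) for the first arrangement, 0.327% (1 of 306) for the other centres and 1.29% without a match, and above it 20.6% (104 of 505), 7.54% (27 of 358) and 7.24%.

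Single sequences are given with both strands counted together. GCCTAAGGC, the match of the Aldh1a3 window, or its reverse complement GCCTTAGGC was in 48 of these peaks, of which 9 (18.8%, 10.2 to 31.9%) overlapped a region. GCCCCAGGC or GCCTGGGGC, found in the Trp63 window, had 39 of 252 (15.5%, 11.5 to 20.5%), GCCCAAGGC or GCCTTGGGC 15 of 97 (15.5%) and GCCTCAGGC or GCCTGAGGC, found in the Barx2, Wnt2b and Sema3c windows, 37 of 245 (15.1%, 11.2 to 20.1%). Sequences with the arrangement were not all alike. GCCCAGGGC or GCCCTGGGC also has it and had 3 of 127 (2.36%, 0.807 to 6.72%), and GCCCGGGGC or GCCCCGGGC, the match of the Dlx2 window, had 6 of 77 (7.79%, 3.62 to 15.98%). Without the arrangement, GCCAGAGGC or GCCTCTGGC had 12 of 147 (8.16%, 4.73 to 13.7%) and GCCACAGGC or GCCTGTGGC had 0 of 93, which allows up to 3.23%. Around the member summits themselves, 150 of 213 matches, or 70.4% (64.0 to 76.1%), had the first arrangement, against 51.7% (49.6 to 53.9%) of 2105 matches in control peaks without a region.

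The arrangement was also examined in control peaks of the other locations, which were not used to choose the members but come from the same calls. The first arrangement exceeded all other matches together, the reverse arrangement included, by 8.52 points (5.94 to 11.1) in distal genic peaks, where 14.5% of 1155 overlapped a region. In remote intergenic peaks the difference was 7.55 points (2.16 to 12.6), with 21.0% of 485, and in promoter-proximal peaks 2.95 points (1.88 to 4.28), with 3.68% of 1087. Remote intergenic peaks with the other centres, at 14.9% (11.1 to 19.8%), also lay above those without a match, at 7.82% (7.19 to 8.49%). In distal genic and promoter-proximal peaks the intervals of these groups overlapped.

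**Figure D3:**
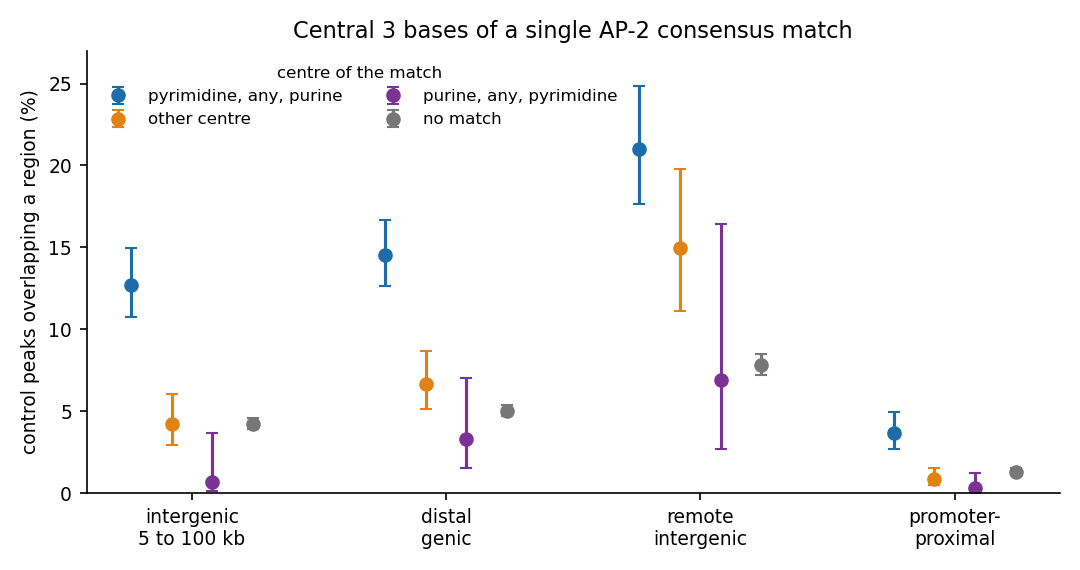
Share of single-copy control peaks that overlapped an AP-2-dependent region, in percent (y axis), by location (x axis) and by the central bases of a single AP-2 consensus match within 100 bp of the control summit, with 95% Wilson intervals. Peaks with a pyrimidine, any base and a purine in the centre are highest in each location, at 12.7% in intergenic peaks 5 to 100 kb from a start site against 4.22% without a match.

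Strings of 16 other factors or families were searched around the same summits, each on both strands, and most did not differ between members and control peaks. For 11 of them the interval of the difference from control peaks without a region included 0. These were the strings AACNNGTT of the epithelial GRHL factors, TGANTCA of AP-1, TGATTGA of PBX and TAATCC of some other homeodomain proteins. They were also ACAATG of SOX proteins, TGTGGT of RUNX, AGATAA of GATA factors, TGTTTAC of FOX proteins and the E-box CAGCTG. The remaining strings of this kind were CTTTGA before a weak base, for TCF/LEF, and that of the p53 family. Set against remote intergenic regions instead, members were lower for PBX (−2.57 points, −4.72 to −0.565) and TCF/LEF (−3.88 points, −7.14 to −0.702). They were higher for the E-box (3.72 points, 0.239 to 7.15). The TEAD string GGAATG, the target of the DNA-binding partners of Yap and Taz, was present in 191 members, or 23.2% (20.5 to 26.2%), against 19.6%, a difference of 3.65 points (0.823 to 6.71). It was also above distal genic regions by 4.06 points (0.422 to 7.76), promoter-proximal regions by 10.2 points (5.21 to 14.6) and remote intergenic regions by 4.78 points (0.697 to 8.81). TAATTA, bound by DLX and other homeodomain proteins, was in 63 members, or 7.65% (6.03 to 9.67%), against 4.26%, a difference of 3.40 points (1.74 to 5.44). It was in 8.15% of distal genic, 4.97% of promoter-proximal and 10.3% of remote intergenic regions, and the intervals of the differences from members included 0. SP/KLF (GGGCGG) was lower in members, at 10.6% against 14.9% (−4.36 points, −6.36 to −2.01), and ETS (CCGGAA) at 3.16% against 4.78% (−1.62 points, −2.67 to −0.159). Compared with remote intergenic regions, SP/KLF was higher in members by 7.34 points (4.85 to 9.86). Its intervals against distal genic and promoter-proximal regions included 0. The CTCF string was nearly absent from members, with 6 of 823, or 0.729% (0.335 to 1.58%), against 9.47% of control peaks (−8.74 points, −9.34 to −7.78). It was in 2 of 1154 distal genic, 0 of 322 promoter-proximal (Wilson upper limit 1.18%) and 2 of 711 remote intergenic regions, so its near absence was shared by all locations. With 16 strings each compared with 4 groups of peaks or regions, an interval that just clears 0 carries less weight than its 95% level states. This holds for ETS, and for PBX, TCF/LEF and the E-box against remote intergenic regions. It also holds for TEAD against all groups but promoter-proximal regions. In single-copy sequence the intervals of AP-1 (1.97 points, 0.0227 to 4.35) and RUNX (−3.59 points, −5.69 to −1.09) also left out 0. There the differences were 4.57 points (1.48 to 7.93) for TEAD, 3.90 points (2.04 to 6.19) for TAATTA and −2.17 points (−3.19 to −0.669) for ETS. SP/KLF and CTCF were lower still in members, by −7.65 and −9.87 points. These single-copy alternatives were chosen after seeing the data.

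**Figure D4:**
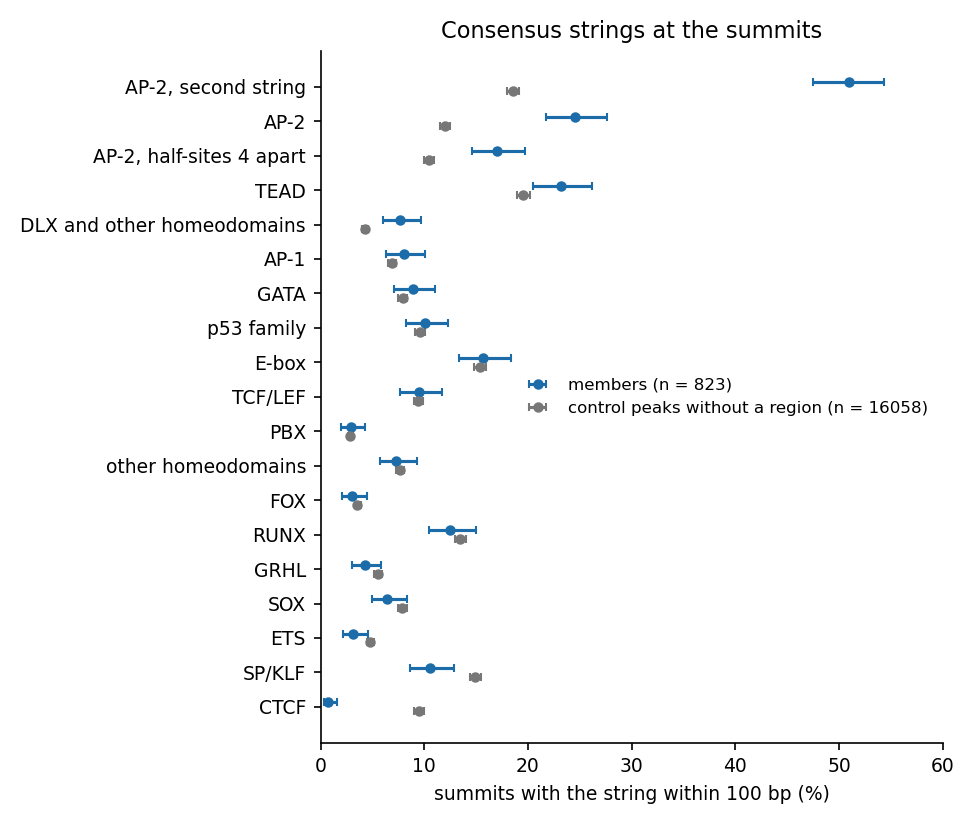
Share of summits with each consensus string within 100 bp, in percent (x axis), for members and for control peaks of the same location without a region, ordered by the difference, with 95% Wilson intervals. The 3 AP-2 strings, TEAD and the homeodomain string lie higher in members, and the CTCF string lies at 0.729% in members and 9.47% in control peaks.

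Base composition was set beside these differences, because the strings differ in GC. In single-copy intergenic control peaks below the median GC content, 6.38% of those with the TEAD string and 5.97% of those without it overlapped a region (0.41 points, −0.80 to 1.75). Above the median the shares were 5.36% and 2.99% (2.37 points, 1.14 to 3.85), so the interval lay above 0 in the GC-rich peaks alone, and a difference between the GC groups was not tested. For TAATTA the differences were 2.86 points (0.647 to 5.67) below and 1.55 points (−0.788 to 5.71) above. Divided at the median summit value instead, the TEAD difference was −0.23 points (−0.79 to 0.53) in the weaker and 2.86 points (1.28 to 4.59) in the stronger peaks, and that of TAATTA 1.88 points (0.485 to 4.20) and 5.06 points (1.77 to 9.20). For SP/KLF the interval included 0 below the median GC (−1.32 points, −3.12 to 1.31) and lay under 0 above it (−1.86 points, −2.63 to −0.963), and for ETS it included 0 on both sides (−1.70 points, −3.85 to 2.10, and −1.29 points, −2.36 to 0.438). In peaks below the median summit value the intervals of SP/KLF and ETS both included 0. In the stronger peaks both lay under 0, at −5.89 points (−7.00 to −4.62) for SP/KLF and −4.14 points (−5.81 to −1.71) for ETS. By GC, the CTCF string went with fewer regions on both sides, with 1 of 728 and 7 of 745 peaks. Among peaks that held an AP-2 match, those with the TEAD string overlapped a region in 11.9% and those without it in 7.81% (4.05 points, 0.62 to 8.29). Among peaks without an AP-2 match the shares were 5.30% and 3.94% (1.36 points, 0.486 to 2.34). Peaks with both the AP-2 and CTCF strings overlapped a region in 0.855%.

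The start sites nearest to the members were mostly open and were rarely AP-2-dependent themselves. A control peak lay within 1 kb of the nearest start site for 651 of 823 members, or 79.1% (76.2 to 81.7%), and for 78.8% of control peaks without a region, a difference of 0.28 points (−2.70 to 3.00). An AP-2-dependent region lay that close for 6 members, or 0.729% (0.335 to 1.58%), against 0.735% of those peaks. These 6 were a pair of members upstream of Cldn8, a claudin of tight junctions, at 7.37 and 23.8 kb, and 1 each near Gm3417, Gm3448, Prag1 and Zfp993, of which Gm3417, Gm3448 and Zfp993 members were multi-copy. They are named after their values were seen. A control peak with the CTCF string stood between the summit and its nearest start site for 8.63% (6.90 to 10.7%) of members and 10.2% of the other control peaks.

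The members were spread over 686 nearest genes, of which 607 had 1 member, 61 had 2, 10 had 3 and 8 had at least 4. These genes were 3.31% of the 20722 protein-coding genes on chromosomes 1 to 19. Genes were read from 7 lists of 291 genes, 5 of ectoderm genes and signals and 2 of other cell types. In all, 44 members lay nearest to 33 of these genes, 29 of them upstream, and the start site was open in the controls for 41 of the 44. The consensus lay at 11 of the 44 and either AP-2 string at 26. Only the member near Wls was multi-copy.

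Among 19 Wnt ligands, 3 had a member. A region 32.7 kb upstream of Wnt2b had an area of 863 and a summit value of 6.07, and carried the consensus. The members 38.2 kb upstream of Wnt11 and 97.7 kb upstream of Wnt4 were weak, with areas of 269 and 272, and had neither AP-2 string. Of 51 control peaks near these ligands 5.88% (2.02 to 15.9%) overlapped a region, an interval that includes the 4.71% over all genes. A run of 3 single-copy members on chromosome 11 from 103704605 to 103722554 lay 7.13, 14.3 and 24.3 kb upstream of Gosr2, a Golgi trafficking protein, and 44.8, 37.6 and 27.6 kb from the start site of Wnt9b on its other side, with areas of 497, 475 and 871.

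Of 49 Wnt receptors, modulators and effectors, 5 had a member, and those near Axin2 and Fzd10 were among the 10 single-copy members with the largest areas. The member 91.5 kb downstream of the start site of Axin2, a feedback inhibitor of the pathway, had an area of 18931 and a summit value of 66.3, with a control summit at percentile 99.99. Its control summit value was 26.6, while control peaks of the same location without a region reached 19.6 at most. The members near Rpusd4, Hic2 and Myl12b were alike in this, at 30.7, 22.2 and 22.2. What sets such peaks apart was not tested. The AP-2-dependent peaks that the paper shows near Axin2 lie elsewhere, upstream of it in introns of Cep112. The Axin2 member had 64.2% GC and 1 match to SCCYNRGGS. Fzd10, a Wnt receptor, had a member 48.7 kb downstream of its start with an area of 2735 and a summit value of 8.95 and with neither AP-2 string. Znrf3, a ubiquitin ligase that removes Wnt receptors, had one 6.09 kb upstream with an area of 1513 and a summit value of 8.50, also without either string. Dkk4, a secreted Wnt antagonist of ectodermal placodes, had one 6.51 kb upstream with an area of 888, a summit value of 6.28 and the string SCCYNRGGS, and its start site had no control peak within 1 kb. Wls, needed for Wnt secretion, had one 99.9 kb away in sequence of 1835 copies. Of 118 control peaks near this list 4.24% (1.82 to 9.54%) overlapped a region, against 4.71% over all genes.

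Transcription factors of the surface ectoderm had 15 members at 10 of 57 genes, and 6 of the 15 carried the consensus. Trp63, the p53 relative that governs stratified epithelia, had a pair. The member 26.7 kb upstream had an area of 2632 and a summit value of 13.9, with 2 matches to SCCYNRGGS, and that at 21.8 kb had an area of 686, a summit value of 8.43 and both AP-2 strings. Both lay inside another transcript of Trp63 than the principal one. Among homeobox genes, Irx5 had 3 members, at 77.2 kb upstream and 16.01 and 30.3 kb downstream, with areas of 363, 802 and 408. The one at 16.01 kb lay inside another transcript of Irx5 than the principal one. Dlx2 had a pair 6.94 and 5.30 kb downstream of its start within 1 control peak, with areas of 430 and 1457. Msx1 had members 7.27 kb downstream and 78.4 kb upstream with areas of 564 and 345. Barx2 had a member 98.2 kb upstream with an area of 1389, which was the only member of this list with a CTCF-string peak between it and its start site. Members near Dlx4 and Irx2 had areas of 388 and 530, and that near Hes1, a target of Notch, had 357. Of 324 control peaks near this list 4.32% (2.59 to 7.12%) overlapped a region, close to the 4.71% over all genes.

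The list of other epithelial signals and receptors held the highest share of the 7 lists, with 18 members at 12 of 56 genes. All lists were chosen with earlier results of these data known, and the overlap counted here also chose the members. The share is therefore a description. Of the 163 control peaks of this list 11.0% (7.10 to 16.8%) overlapped a region, against 4.71% over all genes. Without Cxcl14, an alternative chosen after seeing the data, 9.09% (5.49 to 14.7%) did. Cxcl14, a chemokine of epithelia, had 4 members upstream at 18.9, 29.5, 48.0 and 54.3 kb, with areas of 2204, 344, 582 and 939 and summit values of 9.30, 3.70, 3.82 and 6.88, and these were 4 of its 9 intergenic control peaks. Members in pairs lay near Cyp26a1, which degrades retinoic acid (areas of 412 and 213), Fgfr2 (274 and 228), a receptor for Fgf ligands of the mesenchyme, and Pdgfa (241 and 299). Sema3c, a guidance ligand, had a member 17.97 kb upstream with an area of 572 and the consensus. Aldh1a3, which makes retinoic acid, had one 15.6 kb upstream with an area of 209, close to the lower bound, and the consensus GCCTAAGGC. The members near Bmpr1b, Edn1, Efna1, Pdgfc, Sema3f and Vegfa had areas from 214 to 399. The Bmpr1b member and the Fgfr2 pair lay inside another transcript of the named gene than the principal one.

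Of 55 keratin, junction and basement membrane genes 3 had a member, and 2.65% (0.907 to 7.52%) of 113 control peaks overlapped a region, an interval that includes the 4.71% over all genes. Gjb5, a connexin, had a member 71.8 kb upstream with an area of 724, Col17a1, a hemidesmosome collagen, one 6.19 kb upstream with an area of 301, and Frem1, of the basement membrane, one 41.3 kb upstream with an area of 266. None of the 33 neural crest and mesenchyme genes had a member, with 0 of 80 control peaks, which allows up to 3.75% by the limit of 3 counts and 4.58% by the Wilson interval, the latter within the interval of all genes. None of the 22 neuronal, endothelial and blood genes had one, with 0 of 21 control peaks, which allows up to 14.3%. The start sites of 14 of 14 surface ectoderm markers were open in the controls, and so were those of 10 of 10 mesenchyme markers, 3 of 5 neuronal and 1 of 6 endothelial and blood markers. Open start sites therefore did not by themselves set the tissue apart from mesenchyme, and the part of other cells in these lists was not tested.

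**Figure D5:**
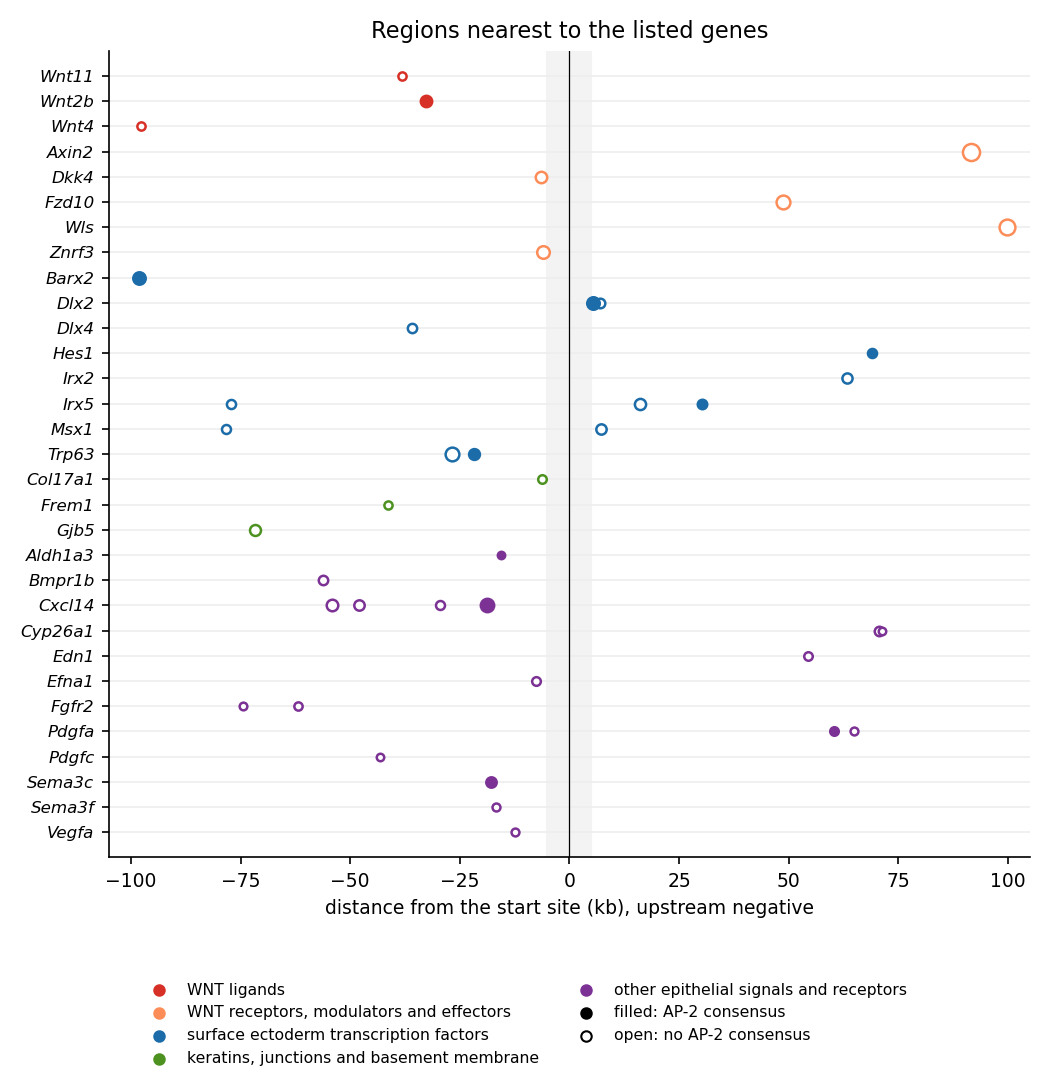
Distance in kb from the start site (x axis, upstream negative) of the members nearest to genes of 5 lists (y axis). Point area grows with the logarithm of the area under the curve, filled points carry the AP-2 consensus within 100 bp of the summit, and the shaded band marks the excluded 5 kb. Of the 42 members drawn 27 lie upstream and 10 carry the consensus.

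Under the rule of GREAT, which lets a region belong to several genes within 100 kb, 14 further list genes gained a member. The share of all protein-coding genes with a member under this rule is not given here, so the gain is a description. The further genes are named after their values were seen. They included Wnt9b with 3 and Wnt8b with 1 among the ligands, and Sostdc1 and Dkk3 among the Wnt antagonists. Cdh3, the P-cadherin of epithelia, gained a member 53.2 kb downstream of its start with an area of 1616, a summit value of 11.1 and 3 matches to SCCYNRGGS. Krt5 and Krt19, keratins of basal and simple epithelia, gained members upstream with areas of 483 and 1187. Notch1 gained a pair 47.9 and 50.3 kb upstream with areas of 761 and 486, and Tfap2c, another AP-2 gene, gained a member 64.3 kb upstream with an area of 226. Prrx1 was the mesenchyme gene with a member under this rule, 69.9 kb upstream with an area of 240.

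Among the 10 single-copy members with the largest areas, 2 carried the AP-2 consensus, those near Arhgap29 (area 3506, 54.9 kb upstream) and Cxcl14. The largest, 37.5 kb downstream of the start of Rpusd4, had an area of 66095 and a summit value of 336, with 36.8% GC and 96.0% of its window marked as repeat, and neither AP-2 string. Axin2 followed. Myl12b (27.1 kb downstream, 3531) and Hic2 (11.2 kb upstream, 2995) had no AP-2 string, summit values of 26.3 and 30.5 and control summits at percentiles of 99.97 and 99.96. The members near 6030452D12Rik (30.8 kb upstream, 2747), Trp63 and Gzmc (6.84 kb upstream, 2304) had SCCYNRGGS, and Fzd10 had neither AP-2 string. Cryaa, a lens crystallin, was with Cxcl14 the other gene with 4 single-copy members, 8.64 to 70.5 kb downstream of its start with areas of 200.1 to 543, and its start site had no control peak within 1 kb.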

How the data were processed

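ATAC-seq of 2 control and 2 EDKO libraries was analysed from the deposited peak lists. The authors trimmed reads with NGmerge, mapped them to mm10 with Bowtie2 (very sensitive, up to 10 positions a read), sorted them with SAMtools and called peaks with Genrich, removing duplicates and combining the libraries of a group. The control list was called against a genome background, and the AP-2-dependent list with the control libraries against the EDKO libraries. The submitters' processing notes name further tools, without a version. The deposited columns used were the area under the curve, a score that sums −log10 p over a peak, the −log10 p at the summit, not adjusted, and the summit position. The authors' lists hold no value per library and no column of per-sample values was left out. The lists carry no read depth, so precision is given only as counting intervals over peaks.

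Start sites and gene bodies were taken from GENCODE vM21 (principal transcripts by APPRIS), and sequence from GRCm38. Chromosomes X, Y and unplaced scaffolds were not used. Overlap meant at least 1 bp. Strings (19 in all, both strands) were searched within 100 bp of the summit; the strings GCCNNNGGC and SCCYNRGGS share the sequences GCCYNRGGC. Single-copy meant a median count of its 31-base words in the assembly under 2. Shares have 95% Wilson and differences 95% Newcombe intervals. Named were list genes and genes with at least 4 members nearest to them, the 10 single-copy members with the largest area and the members at each limit. The members and gene lists were chosen with earlier results of these data known. Alternatives changed the area minimum, window, string, start sites, repeated sequence, overlap and gene assignment. The counting code was tested on simulated data. Python 3.11.15, numpy 2.4.6, pandas 2.3.3, scipy 1.17.1 and matplotlib 3.10.9 were used. Values of 2 genes of the lists are not reported here, and their members enter the counts only.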

Additional observations from a re-analysis of the deposited data

How the results depend on the processing

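The direction of the difference in AP-2 consensus between members and control peaks was kept under all alternatives run. The share of members with the consensus was 33.0% over the whole region, 10.4% within 50 bp and 50.9% with SCCYNRGGS, and the differences from control peaks were then 9.49, 3.97 and 32.4 points. With an area of at least 500 there were 307 members and 16 list genes with a member, 3.10% of control peaks overlapped a region, and the consensus exceeded promoter-proximal regions by 9.96 points (1.26 to 17.4) and remote ones by 4.51 points (−2.66 to 11.4). A reciprocal overlap of 50% gave 2.83% of control peaks. With any transcript start, 74.1% of nearest start sites were open. Median GC was 49.1% over the whole region and 48.8% in single-copy members, of which 9.13% lay within 10 kb of another single-copy region. In single-copy sequence the differences of SP/KLF and CTCF were −7.65 and −9.87 points, an alternative chosen after seeing the data. The difference from distal genic regions ranged from 0.91 points (SCCYNRGGS) to 7.43 points (area of at least 500), with intervals that included 0 in 3 of the 6 alternatives. Of 58 alternative values, 40 stayed close to the value reported, within its 95% interval for a share, difference or median and within 1.5 times it for a count. The causes were not tested.

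No paired analysis was possible because the lists hold no value per library, and for the same reason leaving out a library was not run. The groups differ in Crect as well as in AP-2 alleles, and these cannot be told apart.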
